A study of Mus musculus with 4 samples.

Results

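The genes described here are 8 inflammatory chemokine genes of mouse myeloid cells: Ccl2, Ccl7, Ccl3, Ccl4, Ccl6, Ccl9, Cxcl2 and Cxcl10. The members were chosen by their UMI levels in these same cells, with earlier results of these data in view, and all 8 were found among the 27998 genes of the deposited matrices. They were followed in 3 populations of the sinusoidal gate: Lyz2-high cells, F13a1-positive cells and Elane-high cells. Those levels are therefore given as description, and no test was made.

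The study sorted cells from mice carrying a tamoxifen-inducible Cre under the endothelial Cdh5 promoter, and made 1 single-cell library per group on the 10x Chromium. The groups used here are the library labelled knockout (Id1-/-, Id3-/-) and the library labelled control (Id1+/+, Id3+/-, so the control also carries 1 mutant Id3 allele). Both came from the gate called sinusoidal: lineage-negative, CD31+, VE-cadherin+, endomucin+ and Sca-. A second pair with the same genotypes came from the Sca+ gate, called H vessel. Tamoxifen was injected on 5 consecutive days to delete Id1. The sources used here give neither the number nor the age of the mice, and nothing says whether mice were pooled. With 1 library per group no difference has a replicate check, and no p-value was computed. The 95% intervals, given in parentheses as a lower and an upper bound, cover counting error only.

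Chemokines are small secreted proteins that draw leukocytes along a gradient through G protein-coupled receptors. Ccl2 and Ccl7 are ligands of Ccr2, the receptor that monocytes need to leave the bone marrow. Ccl3 and Ccl4 draw monocytes and T cells, and Ccl3 acts through Ccr1. Ccl6 and Ccl9 are mouse CC chemokines that act through Ccr1. Cxcl2 draws neutrophils through Cxcr2, and Cxcl10 is an interferon-induced ligand of Cxcr3 on T and NK cells. Several of these genes are known to be switched on within a short time by NF-kB when a myeloid cell is stimulated.

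All 8 are protein-coding genes on chromosomes 11 and 5 (GRCm38, GENCODE annotation). Ccl2 at chr11:82035571-82037453 and Ccl7 at chr11:82045712-82047525 are neighbours on the plus strand. Ccl9 at chr11:83572919-83578636, Ccl6 at chr11:83587882-83593087 and Ccl3 at chr11:83647844-83649355 follow on the minus strand, with Ccl4 at chr11:83662584-83664683 on the plus strand. Cxcl2 at chr5:90903871-90905938 on the plus strand and Cxcl10 at chr5:92346638-92348889 on the minus strand are the CXC members.

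RefSeq promoters (GRCm38.p6) matched 5 of the 8 genes. The 250 bases before the RefSeq start are shown for 4 of them, because these 4 stand at the ends of the patterns below. Ccl6 and Ccl9 were seen in nearly every Lyz2-high cell, Cxcl2 was held by few cells, and Cxcl10 was seen nearly alone in the control. Each sequence runs 5' to 3' on the strand of its gene. Capitals mark matches, on either strand, to the NF-kB consensus, the interferon-stimulated response element core (GAAA, any 2 bases, GAAA), the C/EBP core TTNNGCAA, the AP-1 motif TGANTCA and the TATA box TATAAA. The Ccl6 promoter, at chr11:83593088-83593337 on the minus strand, holds none of them.
Ccl6: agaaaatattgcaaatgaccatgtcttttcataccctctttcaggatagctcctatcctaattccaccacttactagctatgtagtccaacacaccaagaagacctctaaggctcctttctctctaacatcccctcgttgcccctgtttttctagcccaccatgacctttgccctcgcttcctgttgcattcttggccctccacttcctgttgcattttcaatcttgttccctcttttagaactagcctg
Ccl9: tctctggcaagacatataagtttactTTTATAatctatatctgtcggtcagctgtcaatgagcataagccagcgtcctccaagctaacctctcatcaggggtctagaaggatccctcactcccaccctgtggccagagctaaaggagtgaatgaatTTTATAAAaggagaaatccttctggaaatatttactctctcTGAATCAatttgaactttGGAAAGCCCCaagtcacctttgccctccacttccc
Cxcl2: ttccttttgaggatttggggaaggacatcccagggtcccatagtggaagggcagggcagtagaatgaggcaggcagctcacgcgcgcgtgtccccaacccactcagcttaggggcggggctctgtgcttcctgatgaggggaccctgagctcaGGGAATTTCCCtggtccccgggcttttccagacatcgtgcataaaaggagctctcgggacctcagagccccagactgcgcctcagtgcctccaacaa
Cxcl10: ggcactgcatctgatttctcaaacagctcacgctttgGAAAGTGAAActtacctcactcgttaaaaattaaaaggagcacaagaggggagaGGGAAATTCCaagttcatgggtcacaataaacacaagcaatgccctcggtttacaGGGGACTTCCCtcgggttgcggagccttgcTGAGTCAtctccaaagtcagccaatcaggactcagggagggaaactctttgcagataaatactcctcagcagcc
The Ccl9 promoter spans chr11:83578637-83578886 on the minus strand. It has TATA boxes at -94 to -87, 1 on each strand and overlapping, another on the opposite strand at -224 to -219, an AP-1 match at -53 to -47 and an NF-kB match on the opposite strand at -35 to -26. In Cxcl2 (chr5:90903649-90903898, plus strand) NF-kB matches on both strands overlap at -97 to -87. Cxcl10 (chr5:92348890-92349139, minus strand) carries the response element core at -213 to -204, NF-kB matches at -159 to -150 and at -104 to -94, and an AP-1 match at -74 to -68. Among 32851 RefSeq mouse promoters of this length, 7.25% hold an NF-kB match, 2.98% the response element core, 9.56% the C/EBP core, 6.75% the AP-1 motif and 12.4% the TATA box. A match describes the letters and not a bound site. Ccl3, the other matched promoter, held none of the 5 motifs.

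The label of the gate was not borne out by its Cdh5, Stab2 and Emcn transcripts, while Pecam1 was seen in more cells. More than 1 of Cdh5, Kdr, Stab2, Flt4, Plvap and Ptprb were seen together in 0 of 553 knockout-labelled and 0 of 351 control-labelled cells. Cdh5, which encodes VE-cadherin, gave 4 UMIs (unique molecular identifiers, 1 per captured transcript) in the library labelled knockout and 7 in the library labelled control. Stab2, a marker of sinusoidal endothelium, gave 0 UMIs in either. Emcn, the endomucin gene, gave 13 and 6 UMIs. Pecam1, the CD31 gene, gave 260 and 141 UMIs and was seen in 31.3% and 26.8% of their cells. Ptprc, the CD45 gene of blood cells, was seen in 61.8% and 71.5% of their cells. The libraries held 553 and 351 cells, with 8290424 and 3179782 UMIs and medians of 15428 and 6142 UMIs per cell. Levels are UMIs per 1000000 UMIs of the summed cells (CPM). Id3 went against its label, at 84.8 CPM (78.6 to 91.3) in the library labelled knockout and 54.7 CPM (46.9 to 63.5) in the library labelled control. It did so in each population too, with 422 and 110 CPM in Lyz2-high, 114 and 70.5 CPM in F13a1-positive and 36.3 and 14.4 CPM in Elane-high cells. Id1, the gene that tamoxifen was given to delete, stood at 26.3 CPM (22.9 to 30.03) and 26.1 CPM (20.8 to 32.4). Whether a tag lies in a deleted part is not known, so every direction below follows a label that is in doubt. The Cre is under the Cdh5 promoter, and Cdh5 gave few UMIs here. Whether Id1 was deleted in the cells described below was not tested. The sinusoidal libraries shared 0 barcodes with each other.

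Lyz2-high cells are cluster 9 of 19, with 54 cells in the library labelled knockout and 114 in the library labelled control. All 12 classical monocyte markers were raised in it, among them Ly6c2, Ccr2 and Fn1. F13a1-positive cells are cluster 8, with 159 and 19 cells and 8 of 10 monocyte progenitor markers raised. Elane-high cells are cluster 6, with 203 and 65 cells and all 9 measured early granulocyte precursor markers raised. The thresholds were set on the clusters seen. Cluster 9 had Lyz2 at 47274 CPM and Ccr2 at 1481 CPM, and the nearest cluster left out, nonclassical monocyte-like cluster 13, had 22738 and 112 CPM. F13a1 stood at 827 CPM in cluster 8 and at 116 CPM in cluster 6, the next one down. It stood at 995 CPM in Lyz2-high cluster 9, which was taken first. Elane stood at 19242 CPM in cluster 6, and cluster 10, left out for its Ngp at 30942 CPM against 525 CPM, had 16504 CPM. Median depth was close between the libraries in Lyz2-high cells, at 5909.5 and 5773.5 UMIs, and in Elane-high cells, at 16845 and 17452 UMIs. It was 16882 and 11893 UMIs in F13a1-positive cells.

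Each chemokine had its own distribution over the cell types of the sinusoidal gate. Lyz2-high cells, 18.6% of the cells, held 73.3% of the Cxcl2 UMIs, 67.8% of Ccl2, 60.3% of Ccl6 and 58.5% of Cxcl10. Of the 21 Ccl7 UMIs they held 95.2%. Ccl9 was spread over 3 populations, with 26.8% of its 5629 UMIs in Lyz2-high, 31.0% in F13a1-positive and 30.8% in Elane-high cells. Ccl3 and Ccl4 lay mostly outside the monocyte line. The 18 cells of cluster 17, 1.99% of the gate, held 32.1% of the Ccl3 UMIs and 50.3% of the Ccl4 UMIs, at 18154 and 17260 CPM.

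**Figure D1:**
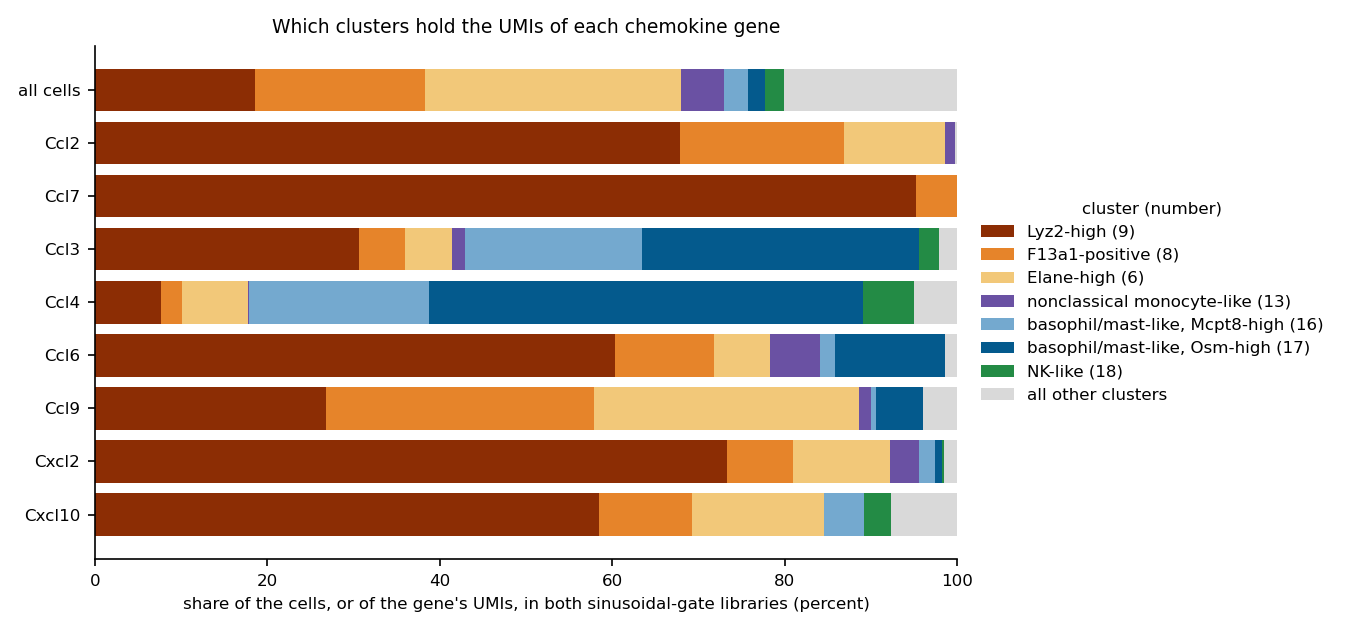
Bars give, for both sinusoidal-gate libraries together, the share of all cells (top) and of each gene's UMIs (percent) that each cluster holds. Lyz2-high cells hold 73.3% of Cxcl2 and 7.70% of Ccl4, while basophil/mast-like cluster 17 holds 50.3% of Ccl4 and 0.789% of Cxcl2.

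Cluster 17 had 7 of 8 basophil and mast cell markers raised, and Osm, Ccl3, Ccl4, Ccl6 and Hdc, the histidine decarboxylase gene of histamine synthesis, led it; the chemokine genes had been left out of the clustering. Ccl3 was close between its 6 cells labelled knockout and 12 labelled control, at 18752 (16720 to 20964) and 17889 CPM (16556 to 19301). Ccl6 was too, at 7222 and 7440 CPM. Ccl4 stood at 20087 (17981 to 22372) and 16009 CPM (14749 to 17347) there, and Ccl9 at 7889 and 4727 CPM. Cxcl2 gave 0 UMIs in the 6 cells, which allows up to 224 CPM. In the 12 cells it gave 5 UMIs in 4 cells, at 134 CPM (43.6 to 313). These cells were shallow, with medians of 2683.5 and 2961.5 UMIs. The other basophil/mast-like cluster, 16, is led by the proteases Prss34 and Mcpt8. Its 21 cells labelled knockout had Ccl3 at 2736 CPM and Ccl4 at 1657 CPM, and its 4 labelled control had 715 and 586 CPM. Of the 583 Ccl3 UMIs in those 21 cells, 1 cell held 154, and 17 cells had at least 1.

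**Figure D2:**
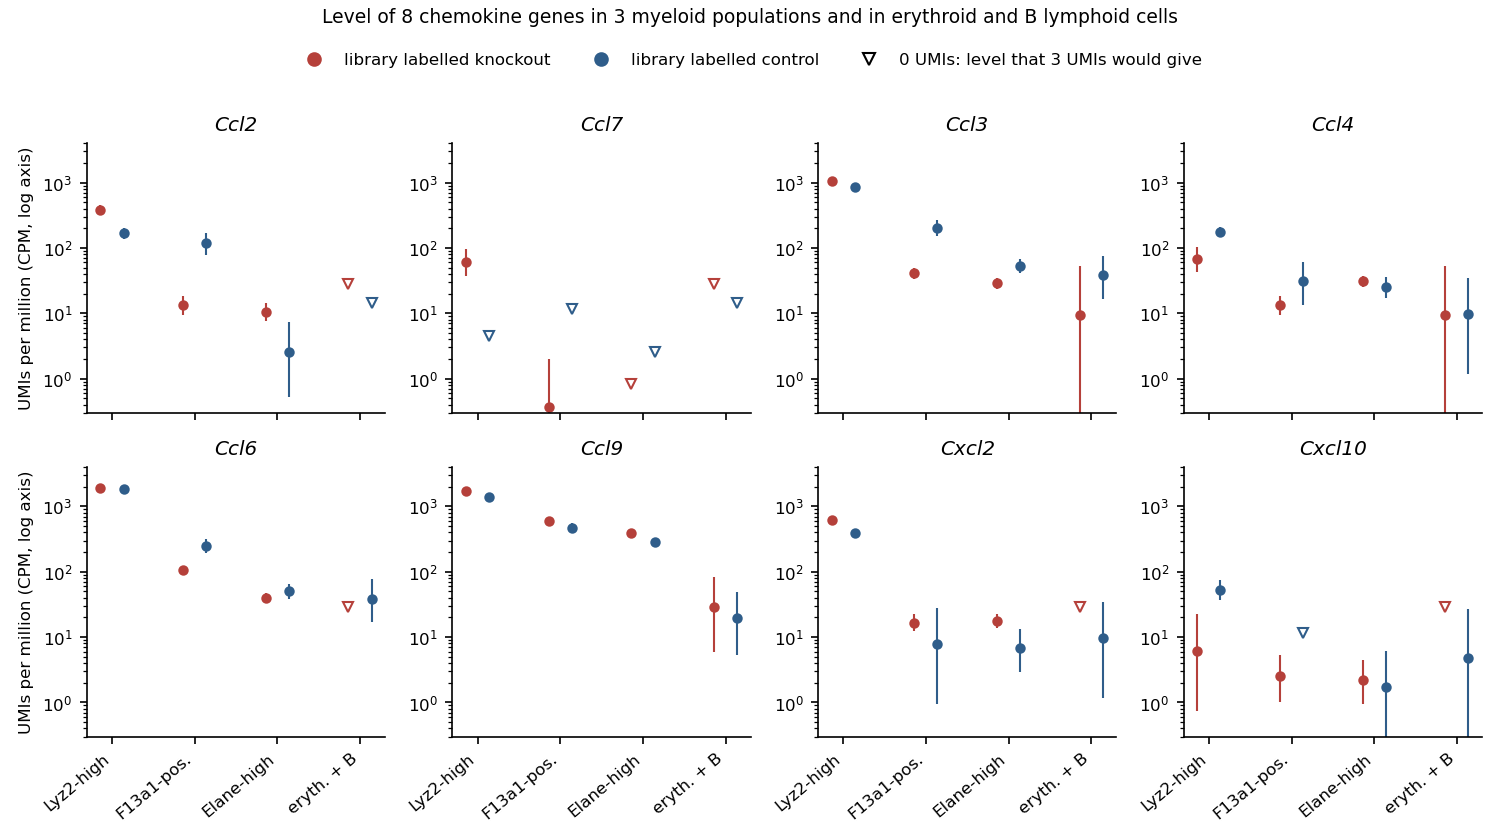
Points give each gene's level (CPM, log axis) in 4 sets of cells, with exact Poisson 95% intervals, for the library labelled knockout (red, left) and the library labelled control (blue, right). Open triangles mark 0 UMIs and stand at the level 3 UMIs would give. In Lyz2-high cells of both libraries Ccl6 and Ccl9 lie at 1404 CPM or more.

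Free RNA was gauged in erythroid and B lymphoid cells, which were taken to lack these transcripts, though that was not tested. The gauge had 12 cells in the library labelled knockout and 23 in the library labelled control. In these the level was 0 and 0 UMIs for Ccl2, 9.5 and 38.8 CPM for Ccl3, 9.5 and 9.71 CPM for Ccl4, 0 and 38.8 CPM for Ccl6, 28.5 and 19.4 CPM for Ccl9, and 0 and 9.71 CPM for Cxcl2. Elane in the same cells stood at 209 and 1374 CPM, but 1 control cell held 249 of its 283 UMIs, and without the highest cell of each library the levels were 161 and 165 CPM. The background is small beside the levels of Lyz2-high cells and is close to several levels of Elane-high cells. It is also close to some levels of F13a1-positive cells, with Ccl4 at 13.4 and 31.3 CPM and Cxcl2 at 16.7 and 7.83 CPM. Their Ccl3 in the library labelled knockout, at 40.7 CPM, lay within the interval of the background (0.241 to 52.9).

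In Lyz2-high cells the Ccr2 ligands were higher in the library labelled knockout. Ccl2 gave 124 UMIs, 382 CPM (318 to 455), in the library labelled knockout and 114 UMIs, 169 CPM (139 to 203), in the library labelled control, a ratio of 2.26 (1.74 to 2.94). The intervals of the levels do not overlap, and without the highest cell of each library the levels were 326 and 148 CPM. Ccl7 gave 20 UMIs in the library labelled knockout, all in 1 cell, and 0 in the library labelled control. Set against a floor of 3 UMIs in that sum, Ccl7 was 13.8-fold higher. That value leaves out counting error and rests on that cell. The same cell had 22 UMIs of Ccl3 and 8 of Ccl2.

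Ccl4 was lower in the library labelled knockout, and Ccl3 was under 1.5-fold apart. Ccl3 stood at 1078 CPM (968 to 1197) in the library labelled knockout and 857 CPM (789 to 930) in the library labelled control, a ratio of 1.26 (1.10 to 1.44). Ccl4 stood at 67.7 CPM (42.5 to 103) and 178 CPM (148 to 213), a ratio of 0.381 (0.230 to 0.603). Those levels rest on 22 and 120 UMIs. Without the highest cell of each library Ccl4 was at 43.1 and 135 CPM. Thinned to 2000 UMIs per cell, Ccl3 was seen in 68.5% (54.4 to 80.5) of cells in the library labelled knockout and in 50.9% (41.3 to 60.4) in the library labelled control. The thinned shares of Ccl4 were 5.56% (1.16 to 15.4) and 16.7% (10.3 to 24.8). Unthinned shares were 79.6% and 72.8% for Ccl3, and 22.2% and 25.4% for Ccl4. In the cells that gauge free RNA, Ccl3 was seen in 0 of 12 and 4.35% after thinning, and in 8.33% and 26.1% before it.

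The Ccr1 ligands Ccl6 and Ccl9 were seen in nearly every cell and were under 1.5-fold apart in the cluster. Ccl6 stood at 1921 CPM (1774 to 2078) in the library labelled knockout and 1855 CPM (1754 to 1961) in the library labelled control, a ratio of 1.04 (0.939 to 1.14). For Ccl9 the levels were 1737 CPM (1596 to 1886) and 1404 CPM (1316 to 1497), a ratio of 1.24 (1.11 to 1.37). Ccl6 was seen in 53 of 54 cells of the library labelled knockout and in all 114 of the library labelled control.

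The CXC members differed in opposite directions. Cxcl2 stood at 625 CPM (542 to 717) in the library labelled knockout and 389 CPM (343 to 439) in the library labelled control, a ratio of 1.61 (1.33 to 1.94). Its share of cells was close: 29.6% (17.98 to 43.6) and 29.8% (21.6 to 39.1) after thinning, 40.7% and 37.7% before. A single cell of the library labelled knockout held 51 of its 203 UMIs. Without the highest cell of each library the levels were 468 and 346 CPM, under 1.5-fold apart. Cxcl10 gave 2 UMIs in the library labelled knockout and 36 in the library labelled control, or 6.16 CPM (0.746 to 22.2) and 53.4 CPM (37.4 to 73.9), a ratio of 0.115 (0.0135 to 0.448). In the control 1 cell held 18 of the 36 UMIs.

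**Figure D3:**
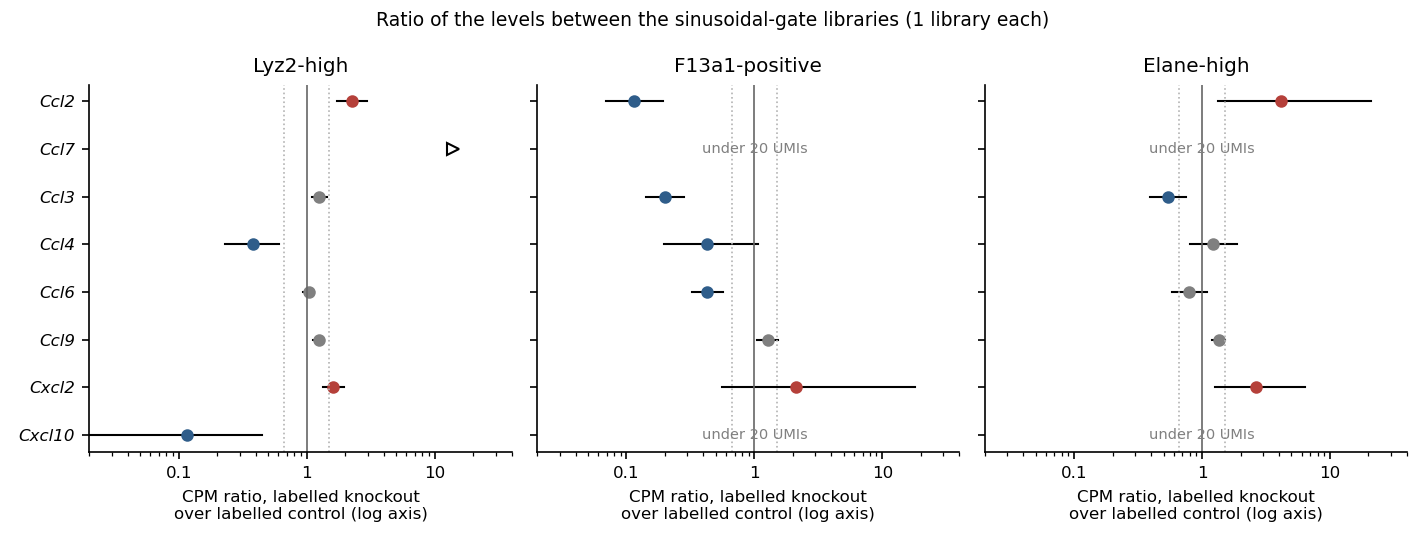
Points give the ratio of levels (CPM, log axis), library labelled knockout over library labelled control, with 95% counting intervals, in the 3 populations. Red is at least 1.5-fold higher, blue at least 1.5-fold lower and grey neither. The triangle is a ratio to a floor of 3 UMIs, with no interval. In Lyz2-high cells Ccl2 (2.26) and Cxcl2 (1.61) lie above 1 and Ccl4 (0.381) and Cxcl10 (0.115) below it.

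A gene was called where the ratio was at least 1.5-fold either way and both sums held at least 20 UMIs together. In Lyz2-high cells 3 members were called higher and 2 lower, and 8.65% of the 4762 genes with as many UMIs were called higher and 14.1% lower. Ccl7 and Cxcl10 reached 20 UMIs nearly through 1 library alone, so they had to differ. Where Lyz2-high cells were taken cell by cell, by Lyz2 of at least 5000 CPM and no clusters, they were 113 and 185 cells, and the log2 ratio of Ccl2 was 0.05 and that of Cxcl2 -0.52. Ccl3 and Ccl6 were lower there, with log2 ratios of -0.75 and -0.86, against 0.33 and 0.05 in the cluster. Ccl4 was lower in both, at -2.02 and -1.37. The 12 classical monocyte markers summed to 65514 and 61953 CPM in the Lyz2-high cluster. The 10 erythroid markers, of which 4 and 5 had a UMI, summed to 231 and 1177 CPM, and their part in the ratios was not tested.

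How evenly the Lyz2-high cells held the UMIs depended on the gene. The highest 10% of the cells, 6 in the library labelled knockout and 12 in the library labelled control, held 16.7% and 16.02% of the Lyz2 UMIs, close to the 16.7% and 16.3% of all UMIs in the 10% deepest cells. They held 20.5% and 21.98% of Ccl6 and 23.2% and 22.2% of Ccl9. For Ccl3 the shares were 39.1% and 47.4%, for Ccl2 53.2% and 66.7%, for Cxcl2 72.9% and 66.4% and for Ccl4 72.7% and 85.0%. The order from Ccl6 and Ccl9 to Ccl3 and then to the others was thus the same in both libraries. It is also the order of their UMI totals, and low totals raise such shares. Elane, with 67 and 158 UMIs, had shares of 31.3% and 27.2%. Id3, with 137 and 74 UMIs, had 25.5% and 47.3%. The part of the totals in the order was not tested. With 22 Ccl4 UMIs in the library labelled knockout, 6 cells hold at least 27.3% of them whatever the distribution.

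Single cells show the same grading. The 5 highest Cxcl2 cells of the library labelled knockout held 51, 30, 25, 22 and 10 UMIs, and those of the library labelled control 29, 22, 19, 18 and 15, while the median cell of each had 0. For Ccl6 the 5 highest held 24, 22, 22, 21 and 20 UMIs in the library labelled knockout and 32, 30, 27, 25 and 22 in the library labelled control, with medians of 11 and 10. Ccl3 lay between, with 30 and 40 UMIs in the highest cells and medians of 3 and 2. The highest cells were not always deep ones. The highest Cxcl2 cell of the library labelled knockout ranked 36 of 54 by depth, and its highest Ccl4 cell 6 of 54. No highest cell of any member among Lyz2-high cells was marked by Scrublet.

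**Figure D4:**
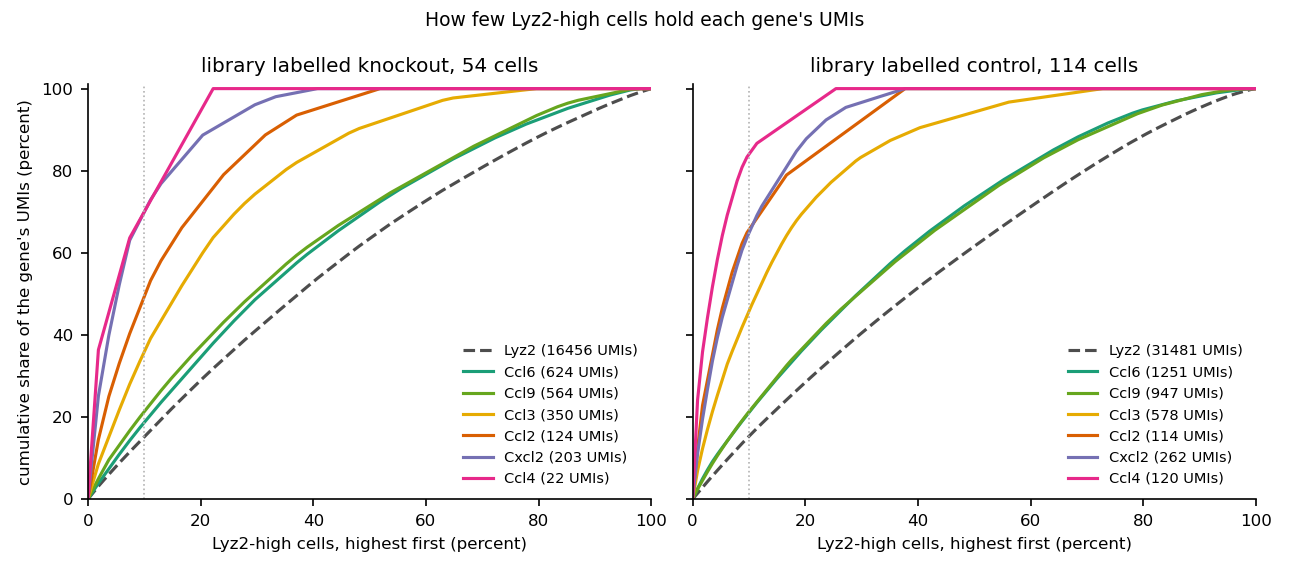
Lines give the cumulative share of each gene's UMIs (percent) as Lyz2-high cells are added from the highest down (percent of cells), in the library labelled knockout (left) and the library labelled control (right). At the dotted line (10% of cells) Ccl6 and Ccl9 lie near Lyz2, and Ccl4 and Cxcl2 far above it.

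Different cells topped different genes. In the library labelled knockout 7 separate cells were the highest for the 7 genes other than Cxcl10, whose 2 UMIs lay in 2 cells. The top Cxcl2 cell had 44 UMIs of Nfkbia and 6 of Tnf, NF-kB-induced genes for the NF-kB inhibitor and tumour necrosis factor. It had 15 of Ccl3 and 0 of Ccl2 and Ccl4. In the library labelled control 1 cell topped both Ccl3, with 40 UMIs, and Ccl6, with 32. After thinning, cells with a Cxcl2 UMI in the library labelled knockout had Ccl3 in 14 of 16 (61.7% to 98.4%) and Ccl2 in 8 of 16 (24.7% to 75.3%). Those without had Ccl3 in 23 of 38 (43.4% to 76.0%) and Ccl2 in 7 of 38 (7.74% to 34.3%). In the library labelled control those with Cxcl2 had Ccl4 in 32.4% (17.4 to 50.5) and those without in 8 of 80 (4.42% to 18.8%), while Ccl2 was in 7 of 34 and 16 of 80. Ccl3 was in 21 of 34 (43.6% to 77.8%) and 37 of 80 (35.0% to 57.8%) there, with overlapping intervals. In the library labelled knockout Ccl4 went the other way, in 0 of 16 cells with Cxcl2 and 3 of 38 without. Cells of 1 library share its free RNA and handling, and no test was made of these shares.

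In F13a1-positive cells, the monocyte progenitor-like population, 4 members were called lower in the library labelled knockout. Ccl2 stood at 13.4 CPM (9.46 to 18.5) in the library labelled knockout and 118 CPM (79.3 to 168) in the library labelled control, a ratio of 0.114 (0.0687 to 0.192). Ccl3 stood at 40.7 and 204 CPM, a ratio of 0.200 (0.143 to 0.283). Ccl6 stood at 107 and 251 CPM, a ratio of 0.427 (0.325 to 0.569), and Ccl4 at 13.4 and 31.3 CPM, a ratio of 0.429 (0.197 to 1.07) that rests on 37 and 8 UMIs. Under the stricter filter on cells and at Leiden resolution 2 the log2 ratio of Ccl4 was -0.40 and -0.47, under the 1.5-fold line. Ccl9 did not follow, at 591 CPM (563 to 621) and 466 CPM (386 to 558). Cxcl2 was called higher at 16.7 and 7.83 CPM, a ratio of 2.13 (0.558 to 18.1) against 2 UMIs in the control. Of its 46 UMIs in the library labelled knockout 44 lay in 1 cell. Cxcl2 thus reached the minimum of UMIs nearly through that cell alone. Ccl7, with 1 and 0 UMIs, and Cxcl10, with 7 and 0, stayed under the minimum. Of 7913 genes 19.1% were called higher and 19.3% lower, and the members' count stands beside that wide background.

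The F13a1-positive cells of both libraries were not alike. Lyz2 stood at 5823 CPM in the library labelled knockout and 16989 CPM in the library labelled control, and Elane at 4094 and 1481 CPM. The 12 classical monocyte markers summed to 13066 and 26230 CPM, and the 9 early granulocyte precursor markers to 12365 and 5743 CPM. Of these, Gfi1 in the library labelled control was at 0 UMIs. The part of this makeup in the members' levels was not tested. Cells with Lyz2 of at least 10000 CPM were 38 of 159 and 13 of 19. Among those cells Ccl2 stood at 50.1 and 211 CPM, Ccl3 at 77.8 and 295 CPM, Ccl6 at 363 and 408 CPM and Ccl9 at 958 and 387 CPM. Among the other cells, 121 and 6, Ccl3 stood at 30.8 and 88.5 CPM, Ccl6 at 39.1 and 53.1 CPM, and Ccl2 at 3.68 and 0 CPM. Those 6 control cells held 6 Ccl6, 10 Ccl3 and 0 Ccl2 UMIs. The level of all genes under another scaling moved by 0.14 (log2) in this population, and by -0.05 and 0.02 in Lyz2-high and Elane-high cells.

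Elane-high cells, the early granulocyte precursor-like population, had 1 member well above the free RNA in both libraries, Ccl9. It stood at 389 CPM (368 to 410) in the library labelled knockout and 288 CPM (258 to 320) in the library labelled control, a ratio of 1.35 (1.20 to 1.53). Thinned shares were 49.3% (42.2 to 56.3) and 46.2% (33.7 to 59.0), against 0 of 12 and 0 of 23 cells of the free RNA gauge, which allow shares of up to 25% and 13.04%. Unthinned, 93.6% and 90.8% of Elane-high cells had Ccl9, against 3 of 12 and 4 of 23 gauge cells. Ccl3 stood at 28.7 CPM (23.5 to 34.9) and 53.5 CPM (41.1 to 68.4), a ratio of 0.538 (0.389 to 0.748). The gauge cells of the control had Ccl3 at 38.8 CPM. Ccl6, at 39.6 and 50.1 CPM, and Ccl4, at 31.0 and 25.5 CPM, were under 1.5-fold apart.

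Few Elane-high cells held the remaining members. Ccl2 gave 38 UMIs in the library labelled knockout and 3 in the library labelled control, 10.6 CPM (7.51 to 14.6) and 2.55 CPM (0.525 to 7.44), a ratio of 4.17 (1.32 to 21.1). Those 38 UMIs lay in 3.94% (1.72 to 7.62) of the 203 cells, and 1 cell held 14. The 3 control UMIs lay in 4.62% (0.962 to 12.9) of 65 cells, so the share of cells was not higher in the library labelled knockout. Cxcl2 gave 64 and 8 UMIs, 17.9 and 6.79 CPM, a ratio of 2.63 (1.26 to 6.36). Its share of cells went the other way, at 6.40% (3.45 to 10.7) and 12.3% (5.47 to 22.8), with overlapping intervals. A single cell of the library labelled knockout held 28 of the 64, and the same cell was the highest for Ccl3 with 22 UMIs, Ccl4 with 37 and Cxcl10 with 5. It had 500 Elane and 10 Lyz2 UMIs and was not marked by Scrublet. Ccl7 gave 0 UMIs in both libraries, and Cxcl10 8 and 2. Ccl2 and Cxcl2 were the 2 members called higher and Ccl3 the 1 called lower. Of 8628 genes 8.7% were called higher and 9.36% lower. Ccl2 and Cxcl2 reached the minimum of UMIs nearly through the library labelled knockout alone, with 3 and 8 UMIs in the control. Those 2 calls rest on few control UMIs and are a description of these libraries.

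Across the populations Ccl9 kept the same order in both libraries. It stood at 1737, 591 and 389 CPM in Lyz2-high, F13a1-positive and Elane-high cells of the library labelled knockout, and at 1404, 466 and 288 CPM in those of the library labelled control, with no overlap between neighbouring intervals. Ccl6 kept that order with wider steps, at 1921, 107 and 39.6 CPM and at 1855, 251 and 50.1 CPM. Ccl3 did so too, at 1078, 40.7 and 28.7 CPM and at 857, 204 and 53.5 CPM, though its 40.7 (33.5 to 49.0) and 28.7 CPM (23.5 to 34.9) have overlapping intervals. For Ccl2 the F13a1-positive and Elane-high levels of the library labelled knockout, 13.4 and 10.6 CPM, have overlapping intervals. Nonclassical monocyte-like cells, 5 and 41 in number, had Ccl6 at 1609 CPM and Ccl9 at 623 CPM in the library labelled control.

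The interferon response genes were lower together with Cxcl10 in Lyz2-high cells. Of 25 such genes 22 had at least 20 UMIs, and 21 of these were at least 1.5-fold lower in the library labelled knockout and 1 higher, with a median log2 ratio of -1.80 against 0.02 over all 4762 genes. Of all 4762 genes 14.1% were called lower and 8.65% higher. With the list's genes at 0 UMIs set to the floor its median was -1.89. Genes such as Ifit3 reached 20 UMIs through the control alone and had to be called lower, so the count is a description of these libraries. Isg15, a ubiquitin-like protein, stood at 24.6 CPM in the library labelled knockout and 240 CPM in the library labelled control, a ratio of 0.103 (0.0435 to 0.207). The antiviral genes Ifit3 and Ifit1 gave 0 UMIs in the library labelled knockout and 69 and 47 in the library labelled control. Set against the floor, which leaves out counting error, they were 11.1-fold and 7.55-fold lower. Ifit2 gave 1 and 44 UMIs, a ratio of 0.0472 (0.00117 to 0.277). Irf9, part of the factor that carries the interferon signal to the nucleus, was the 1 higher, at 73.9 and 48.9 CPM, a ratio of 1.51 (0.854 to 2.63).

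A few cells of the control held most UMIs of the list. Over the list the cells held a median of 2.5 UMIs in the library labelled knockout and 4 in the library labelled control, and at most 37 and 199. The highest 10% of cells held 37.3% and 68.8% of the list's UMIs. In the control the 7 cells with a Cxcl10 UMI had a median of 65 UMIs of interferon response genes, and the 107 cells without had 4, at close median depths of 5867 and 5759 UMIs. Without the highest 10% of cells for the list in each library, 9 of its genes kept 20 UMIs, of which 5 were lower and 1 higher, with a median of -0.72. In Elane-high cells 3 of 13 measured genes of the list were higher and 1 lower, and in F13a1-positive cells 3 of 9 were higher and 2 lower. Of all genes 8.7% were higher and 9.36% lower in Elane-high cells, and 19.1% and 19.3% in F13a1-positive cells.

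**Figure D5:**
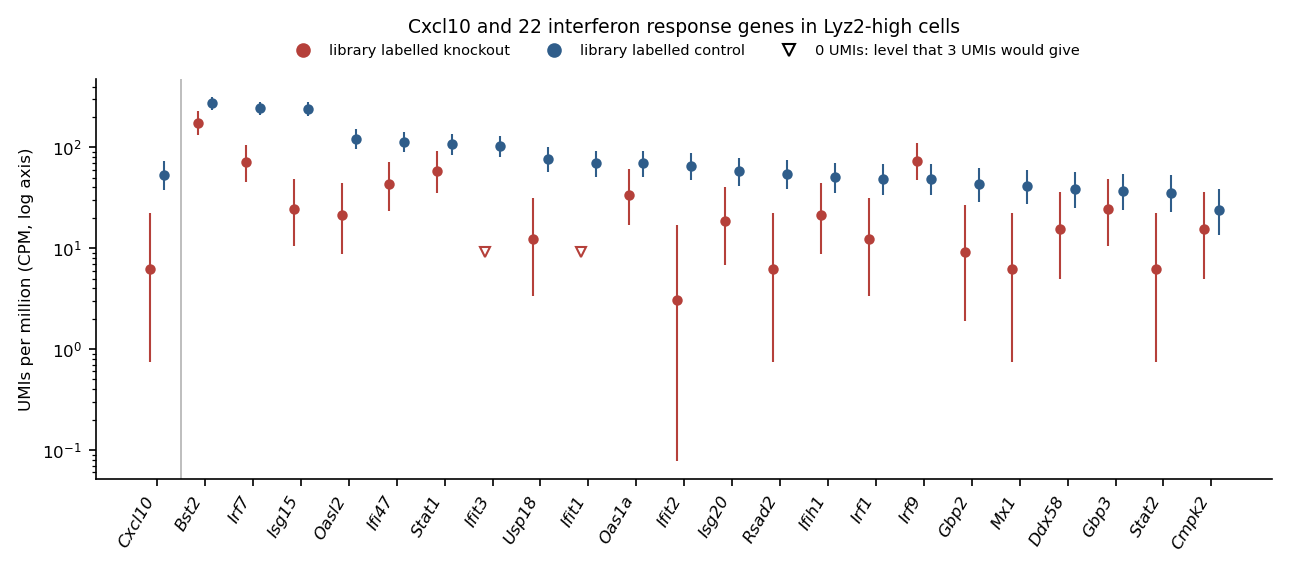
Points give the level (CPM, log axis) of Cxcl10 and of the 22 measured interferon response genes in Lyz2-high cells, with exact Poisson 95% intervals, for the library labelled knockout (red, left) and the library labelled control (blue, right). Irf9 is the gene whose level is higher in red, at 73.9 CPM against 48.9 CPM.

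In Lyz2-high cells most NF-kB response genes were under 1.5-fold apart. Of 21 measured, 3 were called higher and 1 lower, with a median log2 ratio of 0.19 against 0.02 over all genes. Of all genes 8.65% were called higher and 14.1% lower in these cells. Ier3, an early stress response gene, stood at 271 CPM in the library labelled knockout and 84.5 CPM in the library labelled control, a ratio of 3.21 (2.27 to 4.56). Sod2, the mitochondrial superoxide dismutase, had 142 and 93.4 CPM, and Nlrp3, the inflammasome sensor, 46.2 and 26.7 CPM. The lower gene was Tnip1, at 15.4 and 31.1 CPM. In F13a1-positive cells 1 of 17 was higher and 7 were lower, with a median of -0.44. Of all genes there 19.1% were called higher and 19.3% lower, with a median of -0.13. The higher NF-kB gene was Tnip1, with a ratio of 1.79 (0.584 to 8.95) and 3 UMIs in the control. The lower ones included Tnfaip3 at 5.81 and 23.5 CPM, Nfkbiz at 7.63 and 19.6 CPM and Nfkbid at 12.7 and 31.3 CPM. Zfp36, which speeds the decay of cytokine transcripts, was lower too, at 56.7 and 129 CPM. In Elane-high cells 1 of 16 was higher, Nfkbie at 4.75 and 2.55 CPM with a ratio of 1.86 (0.539 to 9.93). There 3 were lower: Rel, Nfkbid and Gadd45b, with ratios of 0.439, 0.481 and 0.641. Of all genes 8.7% were called higher and 9.36% lower in Elane-high cells.

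Immediate-early genes, which cell handling is known to raise, were given beside these. In Lyz2-high cells 8.65% of all genes were called higher and 14.1% lower. The shares were 19.1% and 19.3% in F13a1-positive cells, and 8.7% and 9.36% in Elane-high cells. Of 16 immediate-early genes measured in Lyz2-high cells, 2 were called higher and 0 lower. Those were Egr1 at 77.0 and 44.5 CPM and Dusp2 at 52.3 and 34.1 CPM. In F13a1-positive cells 2 of 15 were higher and 11 lower, with a median of -0.87 against -0.13 over all genes. Atf3 stood at 14.2 and 54.8 CPM there, Ier5 at 30.5 and 106 CPM and Btg2 at 40.3 and 110 CPM. The higher ones were Fosl2, with a ratio of 2.92 (0.776 to 24.6), and Hspa1a, with 37 and 0 UMIs. Set against the floor, Hspa1a was 1.14-fold higher, which lies under 1.5. In Elane-high cells 3 of 16 were higher, among them Fosb at 15.4 and 4.24 CPM, and 3 lower: Nr4a1, Klf4 and Atf3, with ratios of 0.282, 0.439 and 0.639. Chemokine and immediate-early genes were thus lower in the same sums of F13a1-positive cells, and their part in each other was not tested.

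Of the receptors, Ccr2 of Lyz2-high cells was at 1518 CPM in the library labelled knockout and 1486 CPM in the library labelled control, a ratio of 1.02 (0.915 to 1.14). Ccr1, the receptor of Ccl6 and Ccl9, stood at 92.4 and 62.3 CPM and the atypical receptor gene Ccrl2 at 114 and 72.7 CPM, and Ccrl2 was called higher with a ratio of 1.57 (0.995 to 2.45). In F13a1-positive cells Ccr1 was lower, at 12.7 and 39.2 CPM, and in Elane-high cells Ccr2, at 26.5 and 50.1 CPM. Among 28 other chemokine genes 0 reached 20 UMIs in Lyz2-high cells. Ccl5, at 1.95 and 16.1 CPM, and Ccl27a, at 7.26 and 11.03 CPM, were lower in Elane-high cells, and Ccl25 was higher, with a ratio of 4.28 (1.07 to 37.2). In F13a1-positive cells Ccl25 was lower, at 8.35 and 23.5 CPM, and Ccl27a higher, with a ratio of 2.23 (0.363 to 91.5) against 1 UMI.

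The genes most like each member were taken over 10 units, each a cluster in 1 library with at least 20 cells, by Pearson's r of log2(CPM + 10) among 9015 genes. The units come from the same pair of libraries, so r is a description. Ccl2 was nearest to March1 (r = 0.98), Prkaa1 and Sulf2, Ccl3 to Tnfaip3 (0.96), Selk and Cyp4f18, and Ccl4 to Il15 (0.96), Tbcel and P2ry1. Ccl6 was nearest to Naip2 (0.99), Arhgap15 and Mospd2, Ccl9 to Nemf (0.96), Rassf1 and Prcp, Cxcl2 to 1700096K18Rik (0.97) and Tmem106a, and Cxcl10 to Tle3 (0.90), Pydc4 and Ifi205. Between members r was highest for Ccl6 with Cxcl2, at 0.96, and lowest for Ccl4 with Ccl9, at 0.11.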

How the data were processed

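The 4 single-cell libraries were deposited as matrices of whole-number counts of UMIs per gene and cell barcode, which the authors made with Cell Ranger and Seurat on mm10, per the submitters' processing notes; their versions do not appear in the labels. Per the labels' protocols, sorted cells were captured on the 10x Chromium and read on a NextSeq 500.

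Barcodes needed 200 genes or more and a mitochondrial share of UMIs below 10%, which left 3567 cells of 3641 barcodes. Cells of the 4 libraries were clustered together with scanpy 1.11.5 and leidenalg 0.10.2 (Python 3.11.15): 10000 UMIs per cell, log scale, 1985 variable genes without the chemokine genes, 30 components, 15 neighbours, resolution 1, giving 19 clusters. Cluster thresholds were Lyz2 of 20000 and Ccr2 of 500 CPM, F13a1 of 300 CPM, and Elane of 10000 CPM with Ngp under 10000 CPM. Scrublet marked 7 and 5 cells of the sinusoidal libraries labelled knockout and control; they were kept, and leaving them out was an alternative.

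UMIs were summed per population and library and divided by the sum's total. Levels have exact Poisson intervals, ratios exact intervals conditional on the total, and shares of cells exact Clopper-Pearson intervals, all at 95%. Log2 ratios add 0.5 UMIs to each sum. A floor is 3 UMIs in the sum. Shares of cells were also taken after thinning to 2000 UMIs. No p-value was computed. Of each list the text names up to 4 genes with the largest ratios in either direction among those with 20 UMIs, and, where 5 or fewer were called, those too. The members, gene lists, thresholds and tests were chosen with earlier results of these data known. Promoters come from RefSeq and positions from GENCODE. Alternatives are given in the closing section. A result that needs a withheld item is not reported here.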

Additional observations from a re-analysis of the deposited data

Results flagged for a closer look

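The ratio of Ccl2, library labelled knockout over library labelled control, lay on opposite sides of 1 in different populations. It was 2.26 in Lyz2-high cells and 4.17 in Elane-high cells, but 0.114 in F13a1-positive cells. With 1 library per group the difference between populations was not tested. The Elane-high value rests on 38 and 3 UMIs. Taken cell by cell with no clusters, the log2 ratio of Ccl2 was 0.05 in Lyz2-high and 0.26 in Elane-high cells.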

How the results depend on the processing

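Of the 20 log2 ratios with at least 20 UMIs, 14 kept their sign under every alternative tried and 6 changed it under at least 1. All 20 stayed within their counting interval with all variable genes, with median-of-ratios size factors, with no filter on cells and without cells marked by Scrublet. Populations taken cell by cell moved most: the log2 ratio of Cxcl2 in Lyz2-high cells was -0.52 and that of Ccl6 in F13a1-positive cells 0.47, both on the other side of 0. There 1 member was higher and 4 lower in Lyz2-high cells, 2 lower in F13a1-positive and 2 lower in Elane-high cells, with Ccl3 and Ccl6 of Lyz2-high cells at -0.75 and -0.86. Without the highest cell of each library, 1 member was higher and 1 lower in Lyz2-high cells, and 0 higher in F13a1-positive cells. At Leiden resolution 2, 0 were higher and 3 lower in F13a1-positive cells. The stricter filter on cells left 3 lower there, with Ccl2 at -2.29 against -3.13, Ccl3 at -1.68 against -2.33 and Ccl6 at -0.62 against -1.24. As a mean over cells, 1 was higher and 2 lower in Elane-high cells. With no minimum of UMIs, 3 were higher in F13a1-positive cells, and at a fold of 2, 0 were lower in Elane-high cells. In splits chosen after seeing the data, 2 were lower in F13a1-positive cells with Lyz2 of at least 10000 CPM and 2 in those under it. Shares over all genes were taken only under the main setting, so the counts of members under the alternatives have no background to be set against. The cause of these shifts was not tested. Thinned to 1000 UMIs, 29 shares of cells stayed within their interval and 19 moved. No paired analysis was possible because each group has 1 library. Low counts limit Ccl7 and Cxcl10 in every population.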

Other observations

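In the H vessel gate Ccl4 gave more UMIs than each other member, and it was seen in many cells of several clusters. It stood at 278 CPM (269 to 289) in the library labelled knockout and 256 CPM (243 to 269) in the library labelled control, and was seen in 51.8% and 48.1% of their cells. In progenitor-like clusters 0 to 3 it was seen in 45.8% to 68.6% of cells, with no thinning for depth. Erythroid and B lymphoid cells, with medians of 2664.5 and 2714 UMIs, had it in 2 of 32 and 1 of 10, at 62.8 CPM (27.1 to 124) and 72.1 CPM (8.73 to 260). Of those cells 30 and 10 were of B lymphoid cluster 14, and whether they make Ccl4 themselves was not tested. In cluster 1 it stood at 510 CPM (479 to 543) and 448 CPM (404 to 495). In cluster 0 it stood at 397 CPM (365 to 431) and 154 CPM (113 to 205), and 1 of the 400 knockout-labelled cells held 47 of 568 UMIs. Cluster 7, led by Pf4 and Ppbp, was at 97.4 (81.2 to 116) and 152 CPM (123 to 186), within the intervals of the erythroid and B lymphoid cells. Those intervals rest on few cells. In the library labelled knockout 1 of these cells held 7 of 8 Ccl4 UMIs, and without it the level was 7.85 CPM. In the library labelled control 1 cell held all 2 UMIs. Cluster 7 had Ccl4 in 53.5% of its cells in each library, with no thinning for depth. Cxcl10 was seen mostly in plasma-like cluster 5, at 45.2 CPM (34.5 to 58.1) and 58.7 CPM (43.1 to 78.1), in 14.97% and 13.8% of its cells.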
